A study of Mus musculus with 6 samples.

Results

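Quantities of circulating miRNAs are usually expressed relative to a miRNA that is taken to be constant, and miR-191-5p, miR-484, miR-320-3p and miR-186-5p are all used as such references in serum and plasma. They were picked by name, from that use and not from their values, and are listed by their miRBase accessions MIMAT0000221, MIMAT0003127, MIMAT0000666 and MIMAT0000215. They make up 4 of the 788 mature miRNAs with at least 1 read in any of 6 small RNA libraries of mouse serum. The serum came from healthy 129/SVj mice of both sexes, between 2 and 9 months of age, which had received tribromoethanol before the blood was taken. Sex and age are given for the mice as a whole and not by library. The groups were set by the library preparation kit, NEBNext, TruSeq v2 or TailorMix v2, with 2 libraries for each. The RNA was isolated from serum of individual mice, and the paper states that libraries were prepared in duplicate. The labels do not tell whether libraries with the same number hold the same serum. The edgeR p-values below rest on the spread between libraries of a kit, pooled over all miRNAs. That spread may be partly or wholly technical. The question asked of the counts was how steady each reference was between libraries of a kit and between kits.

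A miRNA is cut out of a hairpin in a longer transcript, and the strand that is kept guides Argonaute proteins to messenger RNAs that pair with its seed, bases 2 to 8. In serum, miRNAs are carried by proteins and vesicles shed by many cell types. Serum holds no housekeeping gene in the usual sense, which is why miRNAs present in many tissues serve as references. A kit turns these molecules into a library by attaching an adaptor to each of their ends, copying the product and amplifying it.

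Of the 4 references, 3 are in RefSeq's table of mature sequences for GRCm38.p6. They are shown because reads were mapped with no mismatch. A full-length read could fit another hairpin only if that hairpin held the same sequence. Reads were annotated by position and kept from 15 bases on, and whether shorter reads fit other places was not tested. The seed is in capitals.
miR-191-5p: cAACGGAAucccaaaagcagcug
miR-484: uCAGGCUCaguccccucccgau
miR-186-5p: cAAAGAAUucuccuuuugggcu
No other mature miRNA of that table, which holds 1679 names, shares its seed with any of the 3, and no other hairpin in it contains their sequences. The mature RNAs are 23, 22 and 22 bases long in the order printed, with a GC content of 52.2%, 63.6% and 40.9%. The median miRNA of the table has 22 bases and a GC content of 52.2%. miR-191-5p and miR-186-5p begin with C, as 20.7% of the table's miRNAs do, and miR-484 begins with U, as 40.9% do. miR-320-3p is the other reference.

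The 4 genes lie on different chromosomes of GRCm38, all on the plus strand, as GENCODE M21 places them. The hairpin of Mir191 spans chromosome 9 from 108568319 to 108568392, inside an exon of a long non-coding transcript that also carries Mir425. A miRNA gene annotated on the opposite strand, Gm24083, overlaps it, and the sources used here do not state whether reads were counted by strand. Mir484 lies on chromosome 16 from 14159626 to 14159692, antisense to an exon of Marf1. Mir320 lies on chromosome 14 from 70443510 to 70443591, 62 bp upstream of Polr3d, a subunit gene of RNA polymerase III that runs the other way. The hairpin of miR-320 is known to arise directly at a transcription start, with no cut by Drosha. Mir186 lies on chromosome 3 from 157544279 to 157544349, within introns of Zranb2, the gene of a splicing factor on the same strand.

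All 4 references had reads in all 6 libraries. miRNA reads numbered 165139 to 351758 per library, and a miRNA's share below is its percentage of these. A count of 3, the limit that a count of 0 would allow, was worth 0.000853% to 0.00182% of miRNA reads. Intervals of single libraries are 95% Wilson intervals and cover counting error only, since PCR copies of a molecule were not told apart.

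Together, the 4 references took 2.53% and 2.27% of miRNA reads for NEBNext, 2.93% and 3.16% for TruSeq and 0.981% and 1.01% for TailorMix. Their order changed from kit to kit. With NEBNext it ran miR-191-5p, miR-320-3p, miR-186-5p and miR-484, with TruSeq miR-191-5p, miR-186-5p, miR-484 and miR-320-3p, and with TailorMix miR-320-3p, miR-191-5p, miR-186-5p and miR-484. Both libraries of a kit gave the same order in every case. The 95% intervals of neighbours in this order overlapped in 1 library, TailorMix replicate 1, for miR-186-5p (0.0823% to 0.110%) and miR-484 (0.0623% to 0.0865%).

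**Figure D1:**
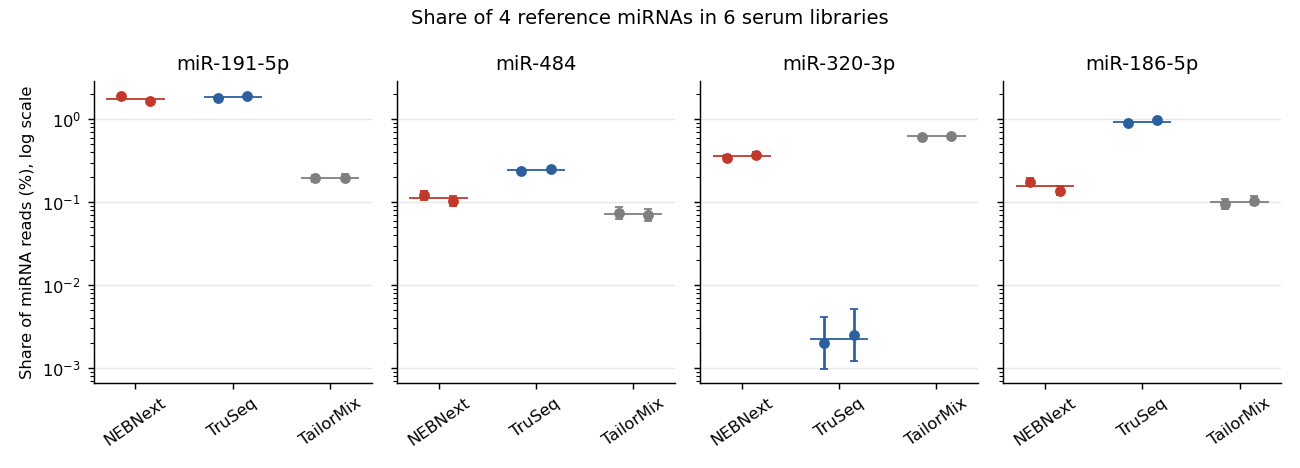
Share of miRNA reads (percent, log scale) of the 4 references in each library, with 95% Wilson intervals of counting error. Points are libraries and lines are means of the 2 libraries of a kit. miR-191-5p is level between NEBNext and TruSeq and low with TailorMix, while miR-320-3p is near 0.002% with TruSeq and between 0.343% and 0.637% with the other kits.

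miR-191-5p, a product of the transcript that also yields miR-425 and the most abundant of the 4 with NEBNext and TruSeq, was counted 4247 and 2729 times in the NEBNext libraries, 6298 and 5443 times in those of TruSeq and 375 and 389 times in those of TailorMix. This made 1.89% and 1.65% of miRNA reads for NEBNext, 1.79% and 1.93% for TruSeq and 0.194% and 0.198% for TailorMix. The NEBNext and TruSeq libraries overlapped, and the TailorMix libraries lay below all of them. By rank among all miRNAs of a library, it stood between place 14 and place 20 with NEBNext and TruSeq and at places 50 and 52 with TailorMix.

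miR-484, whose hairpin also begins at a transcription start, was counted 272 and 171 times (NEBNext), 838 and 703 times (TruSeq) and 142 and 139 times (TailorMix). The corresponding shares were 0.121% and 0.104%, 0.238% and 0.249%, and 0.0734% and 0.0706%. The 3 kits did not overlap, and TruSeq was the highest. Its range over all libraries was 3.53-fold, the narrowest of the 4 references.

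miR-320-3p had 772 and 614 counts in the NEBNext libraries, 7 in each TruSeq library, and 1197 and 1255 in the TailorMix libraries. The shares were 0.343% and 0.372% with NEBNext and 0.619% and 0.637% with TailorMix. With TruSeq they were 0.00199% (95% interval 0.000964% to 0.00411%) and 0.00248% (0.00120% to 0.00512%). The TruSeq mean was 159.9-fold below that of NEBNext and 281-fold below that of TailorMix, although the TruSeq libraries held the most miRNA reads. A miRNA at place 28 and 29 with TailorMix thus stood at place 181 and 195 with TruSeq.

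miR-186-5p, the intronic product of Zranb2, was counted 397 and 228 times in the NEBNext libraries, 3164 and 2756 times in the TruSeq libraries and 184 and 206 times in the TailorMix libraries. As shares these were 0.177% and 0.138%, 0.899% and 0.977%, and 0.0951% and 0.105%. The kits did not overlap, and TruSeq exceeded the other kits by 5.96-fold and 9.40-fold in the means.

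Between the 2 libraries of a kit, the shares of the references were compared as ratios. The share in replicate 2 divided by that in replicate 1 lay between 0.782 and 1.25 over the 12 combinations of reference and kit. The exact 95% interval of this ratio, which covers counting error only, included 1 in 8 of the 12. How often it did so over all miRNAs was not computed, so this count shows nothing particular to the references. It excluded 1 for miR-191-5p with NEBNext (0.875, interval 0.834 to 0.918) and with TruSeq (1.08, 1.04 to 1.12), and for miR-186-5p with NEBNext (0.782, 0.662 to 0.923) and with TruSeq (1.09, 1.03 to 1.14). These 2 references were lower in replicate 2 of NEBNext and higher in replicate 2 of TruSeq. The widest interval was that of miR-320-3p with TruSeq (0.373 to 4.17), where 7 counts a library allowed no closer statement.

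Between kits, the shares of all 4 references differed. They were tested with edgeR's quasi-likelihood test on the counts of 360 miRNAs, with the total of miRNA reads as library size. The adjusted p of any difference between kits was 3.98e-156 for miR-191-5p, 6.21e-39 for miR-484, 1.26e-219 for miR-320-3p and 1.63e-156 for miR-186-5p. Of all miRNAs tested, 91.9% passed the same threshold, an adjusted p under 0.05. The error was pooled over all miRNAs (1080 degrees of freedom, 3 from each miRNA), so that no p was estimated from 1 miRNA alone. In the two-sided exact permutation test of the shares over the 15 groupings of 6 libraries into 3 pairs, p was 0.0667 for miR-484, miR-320-3p and miR-186-5p, the smallest p these groupings allow, and 0.133 for miR-191-5p.

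From NEBNext to TruSeq, 2 references rose, 1 fell and 1 did not pass the test. Of all miRNAs, 70.0% were called in this comparison, and in 83.6% the 2 libraries of each kit did not overlap. By direction, 16.9% of all miRNAs were higher and 53.1% lower with TruSeq. The log2 difference was 2.56 for miR-186-5p (standard error 0.11, adjusted p = 2.58e-93), 1.11 for miR-484 (standard error 0.13, adjusted p = 1.99e-17) and -7.30 for miR-320-3p (standard error 0.21, adjusted p = 1.28e-180). The change of miR-320-3p ranked 20th in size among the 360. Its standard error was worked back from the F statistic of the test. With 7 counts in each TruSeq library, it understates the counting error. For miR-191-5p the log2 difference was 0.070 with a 95% interval of -0.11 to 0.25 (adjusted p = 0.506), a ratio between 0.926 and 1.19. That interval holds on the scale of miRNA reads only. With TMM factors, which take most miRNAs as unchanged, the log2 difference of miR-191-5p was 1.14 (adjusted p = 5.27e-12, with 68.6% of all miRNAs called), and per annotated small RNA read it was 1.80 (adjusted p = 8.77e-46). Without NEBNext replicate 2 it was -0.022 (adjusted p = 0.901).

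From NEBNext to TailorMix, 1 reference rose and 3 fell by share of miRNA reads. The background was 77.8% of miRNAs called, 30.0% higher and 47.8% lower, and 88.9% without overlap. miR-191-5p changed most, by a log2 difference of -3.18 (standard error 0.11, adjusted p = 2.48e-141), and miR-320-3p rose by 0.81 (standard error 0.11, adjusted p = 1.81e-13). miR-484 and miR-186-5p fell by similar amounts, with log2 differences of -0.65 (95% interval -0.94 to -0.36, adjusted p = 2.29e-05) and -0.67 (-0.92 to -0.41, adjusted p = 6.70e-07). The direction of these last 2 depended on the scale. With TMM factors they stood at 0.0033 and -0.014 and did not pass the test (adjusted p = 0.986 and 0.936, with 77.5% of all miRNAs called), and per annotated read they were higher with TailorMix, by 1.39 and 1.38. miR-191-5p stayed lower and miR-320-3p higher with TailorMix under every scale tried.

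From TruSeq to TailorMix, miR-320-3p rose and the other 3 references fell, under each of the scales tried. The background was 73.3% of miRNAs called, 48.6% higher and 24.7% lower, and 83.9% without overlap. With TMM factors 70.6% were called. The log2 difference of miR-320-3p was 8.12 (standard error 0.20, adjusted p = 2.99e-220), which ranked 16th in size. This standard error too understates the counting error of 7 counts in each TruSeq library. For miR-191-5p it was -3.25 (standard error 0.11, adjusted p = 1.56e-146), for miR-186-5p -3.23 (standard error 0.12, adjusted p = 2.41e-123) and for miR-484 -1.76 (standard error 0.13, adjusted p = 8.10e-36). The intervals of miR-191-5p (-3.46 to -3.04) and miR-186-5p (-3.46 to -3.00) nearly coincided.

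The differences of the references are to be read against those of all miRNAs, whose median log2 difference was not 0. By share of miRNA reads the median of the 360 was -1.48 from NEBNext to TruSeq, -0.88 from NEBNext to TailorMix and 0.91 from TruSeq to TailorMix, and with TMM factors it was -0.52, -0.24 and 0.50. The median size of the difference, whatever its sign, was 2.49, 2.32 and 2.37. By share of miRNA reads miR-484 lay below this size in all 3 comparisons, and miR-191-5p, miR-320-3p and miR-186-5p lay above it in 2 each. With TMM factors miR-484 also lay below the median size in all 3. From NEBNext to TruSeq it lay above with DESeq2 size factors (2.25 against 2.23) and per annotated read (2.84 against 2.09). With 4 counts required in all libraries, it lay above from TruSeq to TailorMix, at -1.76 against a median size of 1.65.

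**Figure D2:**
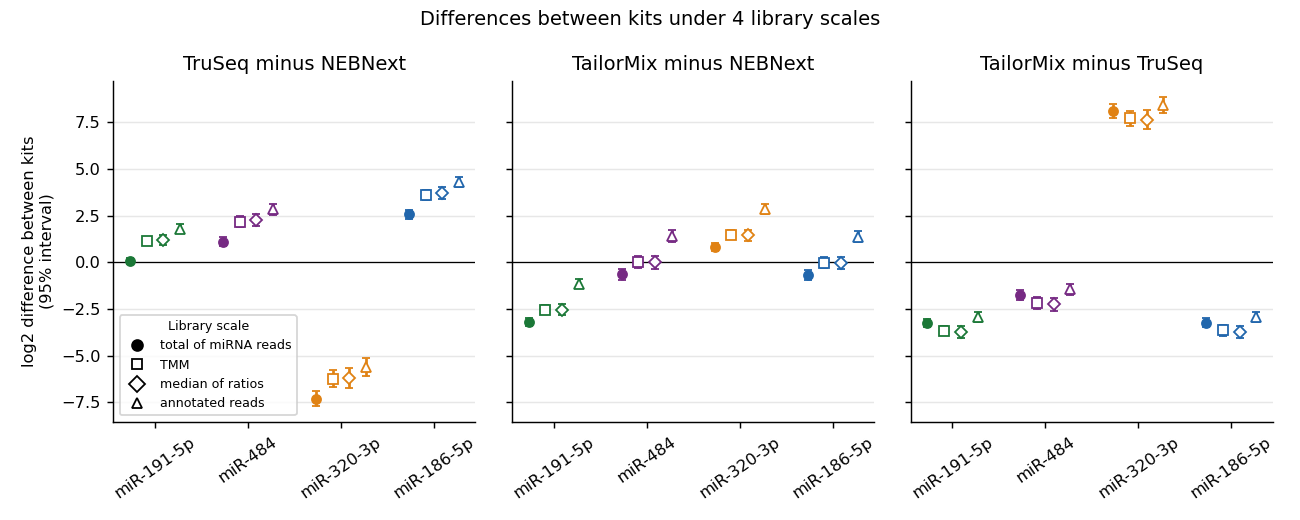
log2 differences between kits of the 4 references with 95% intervals, under 4 ways of scaling the libraries. In comparisons with TruSeq, the intervals of miR-320-3p understate its counting error. Filled circles use the total of miRNA reads, and open symbols use TMM factors, median-of-ratios size factors or the total of annotated reads. In each panel miR-320-3p has the same sign on all 4 scales, whereas miR-191-5p between NEBNext and TruSeq, and miR-484 and miR-186-5p between NEBNext and TailorMix, are near 0 on some scales and away from it on others.

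As a measure of steadiness, the SD of the log2 share over the 6 libraries was computed for the 146 miRNAs with at least 4 counts in every library. It was 0.80 for miR-484, 1.53 for miR-186-5p, 1.66 for miR-191-5p and 3.96 for miR-320-3p, against a median of 1.40 and a range of 0.11 to 4.03. By this measure 22.6% of the 146 miRNAs were steadier than miR-484, 55.5% were steadier than miR-186-5p, 63.0% than miR-191-5p and 97.9% than miR-320-3p. The filter leaves out miRNAs that are missing or scarce with a kit. The median size of the difference between kits was 1.81, 1.81 and 1.65 for the 146, against 2.49, 2.32 and 2.37 for the 360. Places were computed for shares of miRNA reads only. miR-16-5p, the miRNA that the study used to follow miRNA levels in serum, had an SD of 1.75. Of the 146, 8 miRNAs (5.48%) stayed within a 2-fold range over all libraries, and none of the references was among them. The steadiest, listed as MIMAT0000533, ranged over 1.21-fold. miR-484 had the smallest SD of the 4 references also with TMM factors (1.13) and without any single library (0.71 to 0.89). Per annotated read its SD was 1.27, again the smallest but close to the 1.32 of miR-191-5p.

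The SD of the log2 share between libraries of the same kit, pooled over the 3 kits, was 0.091 for miR-191-5p, 0.097 for miR-484, 0.14 for miR-320-3p and 0.16 for miR-186-5p, with a median of 0.16 over the 146 miRNAs. All 4 references were thus at or below that median. They averaged 0.143% to 1.28% of miRNA reads, and the 146 miRNAs were not matched for abundance. Counting error adds more to this SD for scarce miRNAs, so that a place by it does not measure steadiness alone. The reference with the widest range between kits, miR-320-3p, stood at place 60 of 146 within kits.

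**Figure D3:**
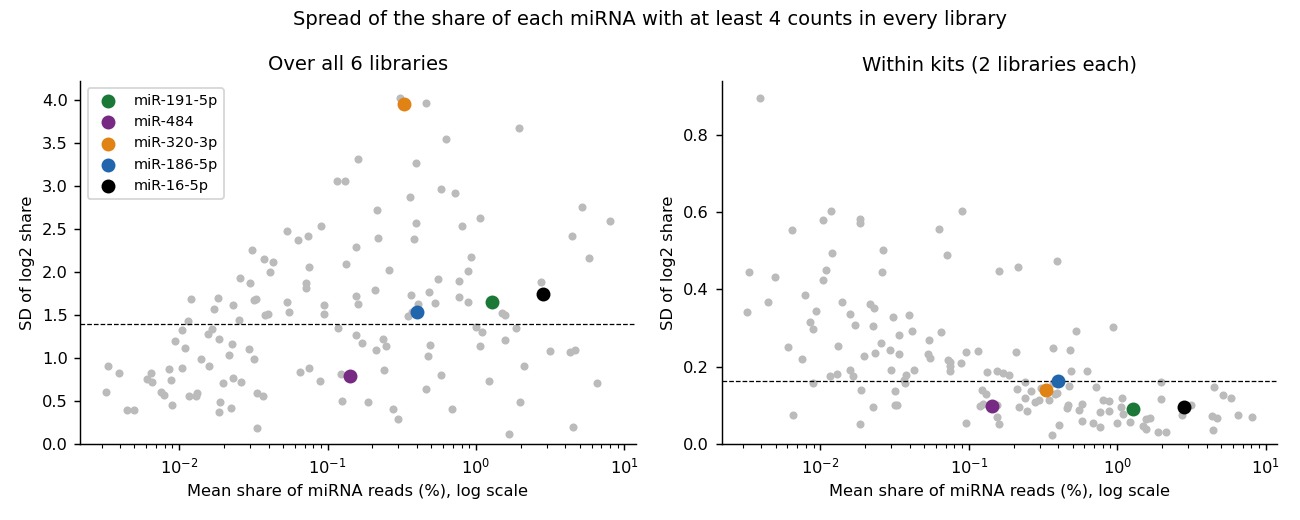
SD of the log2 share of 146 miRNAs against their mean share of miRNA reads (percent, log scale), over all 6 libraries on the left and within kits on the right, with different vertical scales. Coloured points are the 4 references and miR-16-5p, and dashed lines are medians. miR-320-3p is near the top on the left and below the median on the right.

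A reference is used as a ratio, and ratios of counts need no library total. The 6 ratios between the 4 references were therefore compared across libraries. In the two-sided exact permutation test over the kits, 4 ratios had p = 0.0667 (adjusted p = 0.1 over the 6 pairs) and 2 had p = 0.2, so that none could pass 0.05, since 0.0667 is the smallest p of this design. The SD of the log2 ratio over the 6 libraries ran from 0.76 for miR-484 to miR-186-5p up to 5.49 for miR-320-3p to miR-186-5p. Within kits the same SD was between 0.040 and 0.21.

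The ratio of miR-191-5p to miR-484 was 15.6 and 16.0 for NEBNext, 7.52 and 7.74 for TruSeq and 2.64 and 2.80 for TailorMix. It was almost the same in both libraries of a kit and differed 6.04-fold between the extremes. The ratio of miR-191-5p to miR-320-3p was 5.50 and 4.44 for NEBNext, 899.7 and 778 for TruSeq and 0.313 and 0.310 for TailorMix. These references therefore changed places between kits.

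For a pair of ratios, different kits gave overlapping values. The ratio of miR-191-5p to miR-186-5p was 1.99 and 1.97 with TruSeq and 2.04 and 1.89 with TailorMix, against 10.7 and 12.0 with NEBNext. The ratio of miR-484 to miR-186-5p was 0.685 and 0.750 with NEBNext and 0.772 and 0.675 with TailorMix, against 0.265 and 0.255 with TruSeq. Each of these pairs held together between a given pair of kits and came apart with the other kit. With n = 2 libraries of a kit, a smaller difference than the spread within a kit could not be seen.

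**Figure D4:**
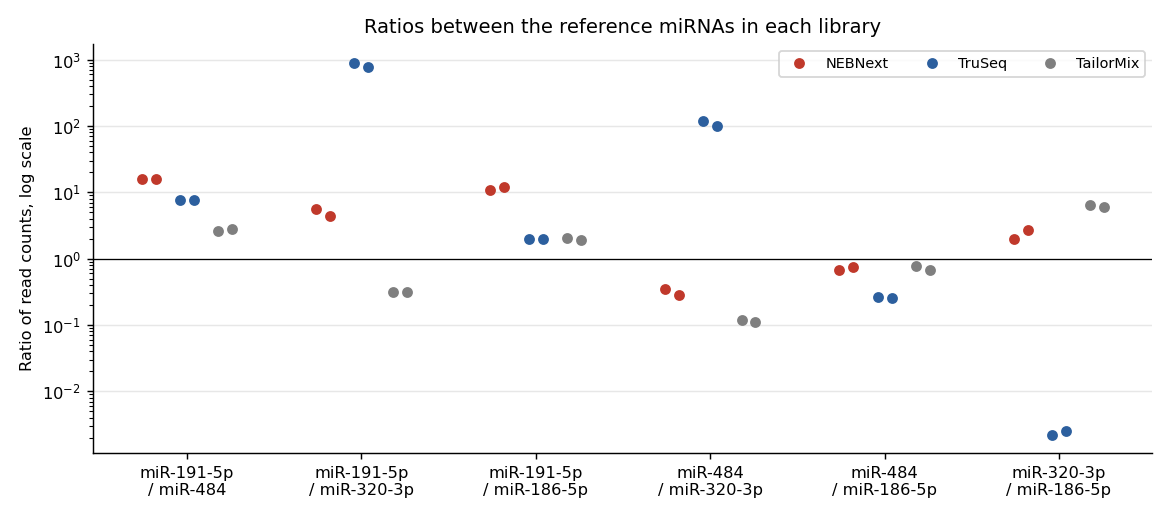
Ratio of read counts (log scale) for each pair of references, with a point for each library, coloured by kit. Libraries of a kit lie close together, and every ratio with miR-320-3p spans 3 orders of magnitude or more. Only miR-191-5p to miR-186-5p (TruSeq and TailorMix) and miR-484 to miR-186-5p (NEBNext and TailorMix) overlap between kits.

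Scaling to a single reference shifts the log2 differences of the other miRNAs by roughly that reference's own difference. When the counts were scaled to a single reference in place of the total, and the same test was run on the other 359 miRNAs, miR-320-3p as reference gave 262 miRNAs higher and 8 lower with TruSeq than with NEBNext. In the same comparison miR-186-5p as reference gave 12 higher and 292 lower, miR-484 34 higher and 247 lower, and miR-191-5p 57 higher and 192 lower. From TruSeq to TailorMix, miR-320-3p gave 4 higher and 277 lower, and miR-191-5p gave 277 higher and 10 lower. miR-186-5p gave 277 higher and 9 lower there, and miR-484 232 higher and 34 lower. From NEBNext to TailorMix the references came closest, with 142 higher and 140 lower for miR-484, 141 higher and 137 lower for miR-186-5p, 80 higher and 203 lower for miR-320-3p, and 235 higher and 32 lower for miR-191-5p. These counts follow from the same values as the differences above and are no separate evidence of them. The test took the count of each reference as exact. With miR-320-3p, at 7 counts in each TruSeq library, all calls against TruSeq share an error that the test leaves out.

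**Figure D5:**
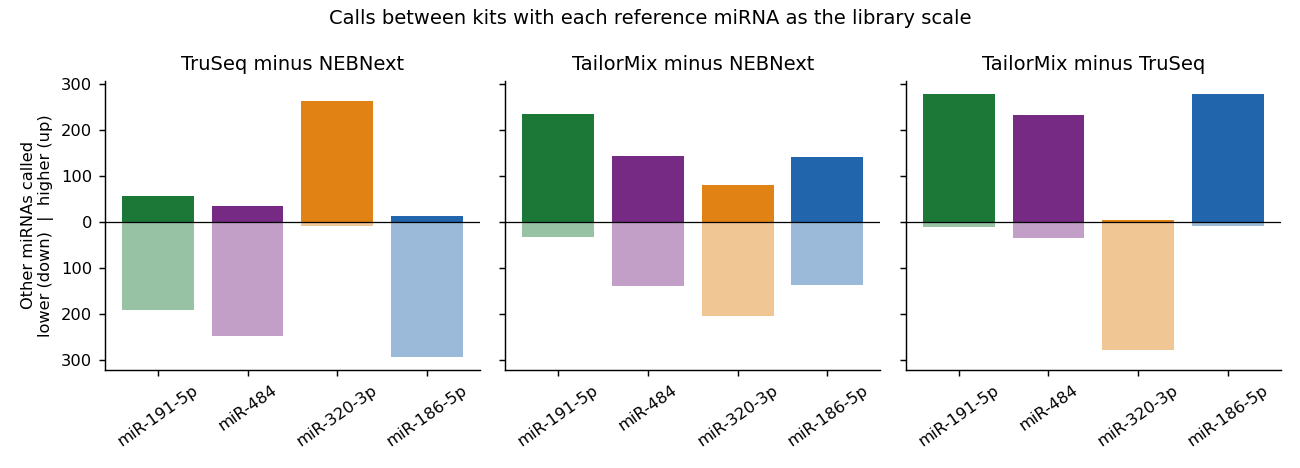
Number of other miRNAs called higher (up) or lower (down) between kits when each reference in turn sets the library scale, out of 359 tested. The counting error of the reference itself is not included. Bars with miR-320-3p as reference point the opposite way from the other references in both comparisons with TruSeq.

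The geometric mean of the 4 references, a combination chosen after their values had been seen, was 0.343% and 0.306% for NEBNext, 0.166% and 0.185% for TruSeq and 0.170% and 0.175% for TailorMix. The TruSeq and TailorMix libraries overlapped, and the range over all libraries was 2.06-fold.

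For each reference, the miRNA with the closest profile was picked from these same libraries, and some miRNA is always the closest. Among the 145 other miRNAs with at least 4 counts in all 6 libraries, the smallest SD of the log2 ratio to miR-191-5p was 0.27, for MIMAT0000160, with 0.824% and 0.725% of miRNA reads for NEBNext, 0.884% and 0.568% for TruSeq and 0.0915% and 0.0757% for TailorMix. For miR-484 it was 0.31, for MIMAT0000658, and for miR-186-5p 0.44, for MIMAT0000126. The closest to miR-320-3p was MIMAT0000383 with 0.72, and it shared the low level with TruSeq, at 0.00625% and 0.00851% of miRNA reads against 0.402% and 0.364% with NEBNext and at least 1.46% with TailorMix. These are descriptions over 6 libraries, 2 of each kit.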

How the data were processed

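The deposited values are read counts, which the authors did not normalize: 1 list per library of reads per mature miRNA (by miRBase accession) and 1 of reads per sequence annotated as another small RNA, used here only for totals of annotated reads. Per the labels and the study's methods, Cutadapt 1.8.1 removed adaptors, and reads in which none was found or which then had fewer than 15 bases were dropped. FASTX-Toolkit 0.0.14 kept reads with 80% or more of their bases at quality 20 or better. Bowtie 1.1.2 aligned them, allowing no mismatch, and they were annotated by position on GRCm38 (miRBase release 20 for miRNAs, UCSC and Ensembl release 84 for the others). A miRNA not listed was taken as 0.

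miRNAs that reached 4 counts in 2 or more libraries were tested with edgeR 4.0.16 (R 4.3.3; glmQLFit, glmQLFTest, Benjamini-Hochberg adjustment over 360 miRNAs), all 6 libraries and kit as the only term, on the total of miRNA reads, which keeps the test on the scale of the shares. In the edgeR fits, the standard error of a log2 difference is its size divided by the square root of the test's F statistic. Intervals of log2 differences come from these standard errors, which understate the counting error of miR-320-3p with TruSeq. Logarithms of shares and ratios had 0.5 counts added. Chi-square per degree of freedom between the libraries of a kit was 2.16 for NEBNext, 15.0 for TruSeq and 1.59 for TailorMix, and they were counted as separate samples. TMM, DESeq2 1.42.0, other totals and filters, a replicate block and single libraries left out were alternatives. The edgeR fit was tested on simulated counts, for TruSeq against NEBNext, and the exact permutation test on made-up values. Shares, SDs and ratios were computed with Python 3.11.15 and scipy 1.17.1.

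The 4 references, the tests and the alternatives were chosen with earlier results of these data known. The miRNAs to be named were the references, other blood references, products of the same hairpins or seeds, the closest profiles and the most abundant miRNA. The lists give accessions without names, so that of the other references miR-16-5p alone could be matched, through the paper, and the hairpins' other products, the red cell miRNAs and the remaining references were not analysed here. The highest mean share over the 6 libraries was that of MIMAT0000208 (8.03%), with kit means of 4.46% (NEBNext), 19.3% (TruSeq) and 0.362% (TailorMix).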

Additional observations from a re-analysis of the deposited data

How the results depend on the processing

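Of 204 log2 differences of the references recomputed under the alternatives, 190 kept their direction and their side of the threshold, and the kit effect on each reference did so under all 14 alternatives run for it. Between TruSeq and NEBNext, miR-191-5p passed the test with TMM factors (1.14), DESeq2 size factors (1.20), DESeq2 (1.20), annotated reads (1.80) and a total without the most abundant miRNA (0.31), and without single libraries it lay between -0.022 and 0.17. Between TailorMix and NEBNext, miR-484 was at 0.0033 with TMM factors, -0.0041 with DESeq2 size factors and with DESeq2, and 1.39 with annotated reads, and miR-186-5p at -0.014, -0.015, -0.015 and 1.38. The total set these values by construction.

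miRNAs called numbered 119, 126 and 124 when 4 counts were required in all libraries (146 miRNAs tested), against 252, 280 and 264 in the order of comparisons used above. The share of calls that were higher was 24.2% from NEBNext to TruSeq, but 38.1% with TMM factors, 39.2% with DESeq2 size factors, 40.0% with DESeq2 and 51.1% with annotated reads. From NEBNext to TailorMix it was 38.6%, but 50.5%, 50.0%, 53.1% and 74.6%. With each reference as the scale, that share stayed within 10 percentage points under all 84 alternatives.

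The SD of the log2 share was, with TMM factors, DESeq2 size factors, annotated reads and the total without the most abundant miRNA, 1.13, 1.16, 1.27 and 0.94 for miR-484 and 3.62, 3.59, 3.80 and 3.82 for miR-320-3p. It was 1.89, 1.92 and 1.97 with the first 3 for miR-186-5p, and 1.32 and 1.76 with the last 2 for miR-191-5p. Without single libraries it ranged from 1.43 to 1.78 for miR-191-5p, 3.37 to 4.28 for miR-320-3p and 1.32 to 1.70 for miR-186-5p. The SD of the log2 ratio then ranged from 1.03 to 1.27 (miR-191-5p to miR-484), 4.57 to 5.70 (miR-191-5p to miR-320-3p), 1.09 to 1.39 (miR-191-5p to miR-186-5p), 4.07 to 5.16 (miR-484 to miR-320-3p), 0.65 to 0.82 (miR-484 to miR-186-5p) and 4.73 to 5.97 (miR-320-3p to miR-186-5p).

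The replicate number as a block changed no call of the references (miR-191-5p from NEBNext to TruSeq 0.071, adjusted p = 0.475 by edgeR's quasi-likelihood test) and gave 240, 260 and 252 miRNAs called. The difference between replicates, taken across 90 miRNAs, correlated between kits with r = 0.139, 0.177 and 0.0393. These values cannot tell whether equal numbers mark the same serum, since each difference also holds the noise of its 2 libraries. The main test used no pairing. The 7 counts of miR-320-3p in each TruSeq library leave its values there the least precise of the references.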
